A study of Mus musculus with 6 samples.

Results

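Serpins are protease inhibitors that most often act as bait: the target enzyme cuts a loop of the serpin, the serpin changes shape, and the enzyme stays trapped on it. The ones described here act inside the cell rather than in blood plasma. They guard the cytosol and nucleus of lymphoid and myeloid cells against proteases that leak from granules or lysosomes. The genes are Serpinb1a, an inhibitor of the neutrophil proteases elastase, proteinase 3 and cathepsin G, Serpinb6a, an inhibitor of cathepsin G, Serpinb6b, an inhibitor of granzyme A in the mouse, Serpinb9, the inhibitor of granzyme B, and Serpina3g, an inhibitor of lysosomal cysteine cathepsins. They were read beside Gzmb, which encodes granzyme B, the granule protease with which cytotoxic lymphocytes start apoptosis in their targets. The 5 serpins were chosen by name with the TCDD differences of these same arrays in view. The TCDD differences of the members are therefore given as a description, with no test. Of the 5, 4 had a probe set annotated with their symbol alone, out of 12393 genes measured in this way. Serpina3g is not analysed here.

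The arrays came from CD4-CD8- double-negative cells of C57BL/6 mouse fetal thymus, which include the earliest T-cell precursors. Lobes taken on day 15 of gestation spent 6 days in culture medium that held 10 nM TCDD, a dioxin that binds and activates the aryl hydrocarbon receptor (AHR), or its solvent dioxane, and all groups shared the strain, the culture and a nominal age of day 21 after conception. Cells left in the lobes are called thymocytes, and cells flushed from the lobes with buffer are called emigrants. The groups were thymocytes with TCDD (1 array), thymocytes with dioxane (1 array, given as 0.1% by volume), emigrants with TCDD (2 arrays) and emigrants with dioxane (2 arrays). RNA came from pooled cells sorted with CD4 and CD8 beads to a purity above 95%, and such a sort does not remove other blood cells lacking both markers. The labels do not say whether arrays of 1 group stem from different cultures, and SDs and p-values thus cover the spread among these arrays alone, which may be technical. The arrays form 3 pairs of TCDD and dioxane with the same source and replicate number, called the thymocyte pair, emigrant pair 1 and emigrant pair 2.

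Both arrays of emigrant pair 1 stood apart from the rest in the medians of neutrophil and erythroid markers. The median over 9 neutrophil genes was 9.02 (dioxane) and 10.06 (TCDD) log2 units on these arrays, and 4.93 to 7.40 on the other 4. Over 6 erythroid genes it was 7.08 and 7.18, against 4.74 to 5.04. Over 11 macrophage and dendritic-cell genes it was 8.56 and 9.07, but also 8.53 on the TCDD array of emigrant pair 2, against 5.07 to 6.61 on the rest. The median over 13 genes of T-lineage precursors was 5.56 and 4.90, against 6.35 to 9.14, so by their median the defining markers of the labelled cells were weakest there. Of those 13 genes, 9 and 6 lay above the highest bacterial control of these arrays. That control is the brightest of 15 probe sets for bacterial transcripts that the cells do not make. It read 4.32 to 4.92 over the arrays and marks the level under which a value cannot be told from background. Not all 13 T-lineage genes followed their median. Dntt, Ptcra, Rag1 and Rag2 were lowest on the TCDD array of emigrant pair 2 (5.61, 4.87, 3.61 and 3.64, the last 2 under background). On the dioxane array of that pair Dntt measured 11.96 and Rag1 9.99. The gap between the 3' and 5' probe sets of actin, which widens in degraded RNA, was wider on the TCDD array of every pair (4.15 against 3.48 in thymocytes, 3.77 against 3.06 and 3.36 against 3.01 in emigrants). The same gap for Gapdh was narrower with TCDD in thymocytes (5.86 against 6.10), wider in emigrant pair 1 (5.60 against 4.75) and nearly level in emigrant pair 2 (4.75 against 4.69). Their part in the values that follow was not tested. In pooled cells, more cells of a type and more RNA per cell cannot be told apart.

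The 4 measured serpins lie in 1 stretch of mouse chromosome 13, a run of 16 protein-coding genes in the RefSeq order, all 16 of them serpins, in which Serpinb1a stands first and Serpinb6a last. RefSeq promoters (build GRCm38.p6) were listed for Serpinb6a, Serpinb6b and Serpinb9. None was listed for Serpinb1a, so the search says nothing about that gene. They were searched on both strands for GCGTG, the core that the AHR and its partner ARNT bind, from 250 bases before to 50 bases after each listed start. Serpinb6a held 1 core at 1 of its 2 listed starts, and the listed starts of Serpinb6b, Serpinb9 and Gzmb held none. Of 32851 promoters of the same length, 32.4% hold the core, so a single match is common. The longer form TNGCGTG was in none of these promoters and in 5.07% of all. The 250 bases before the start are shown for Serpinb6a because they hold the only match, on the opposite strand and in capitals, 10 bases before the start. Those of Serpinb6b are shown beside them because it had the largest mean TCDD difference among the serpins with a listed promoter. Their positions are chr13:34002795-34003044 on the minus strand and chr13:32965011-32965260 on the plus strand, and both run 5′ to 3′ toward the listed start. The listed starts of Serpinb6b and Serpinb9 lie inside their RefSeq gene spans, which begin at 32956811 and 32997061. Bases before the outer ends of these 2 genes were not searched.
Serpinb6a: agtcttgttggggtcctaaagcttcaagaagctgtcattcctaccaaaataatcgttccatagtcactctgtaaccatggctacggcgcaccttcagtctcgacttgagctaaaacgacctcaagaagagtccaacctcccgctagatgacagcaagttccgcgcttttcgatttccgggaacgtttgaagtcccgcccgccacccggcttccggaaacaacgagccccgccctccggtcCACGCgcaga
Serpinb6b: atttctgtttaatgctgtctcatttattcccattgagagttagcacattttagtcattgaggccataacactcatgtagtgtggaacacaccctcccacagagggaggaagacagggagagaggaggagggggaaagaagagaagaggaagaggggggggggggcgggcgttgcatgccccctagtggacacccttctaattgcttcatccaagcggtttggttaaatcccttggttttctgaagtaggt

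Serpinb1a was higher with TCDD in all 3 pairs. In thymocytes it measured 4.76 log2 units with dioxane and 8.19 with TCDD, a difference of 3.43 or 10.8-fold. The dioxane value sits just over the highest bacterial control of its array (4.72), so background limits how large this difference can appear. Emigrant pair 1 measured 6.69 and 7.73, a difference of 1.04 or 2.06-fold. Emigrant pair 2 measured 6.98 and 9.21, a difference of 2.23 or 4.70-fold. The dioxane arrays covered 4.76 to 6.98 and the TCDD arrays 7.73 to 9.21, so the treatments did not overlap. The mean difference was 2.23 ± 1.19 (SD, n = 3 pairs), the 9th highest of 12393 signed mean differences. Without emigrant pair 1 it was 2.83. A second probe set for the gene gave 1.26, 0.00 and 2.66 in the same pairs, but read above the highest bacterial control on only 2 arrays.

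**Figure D1:**
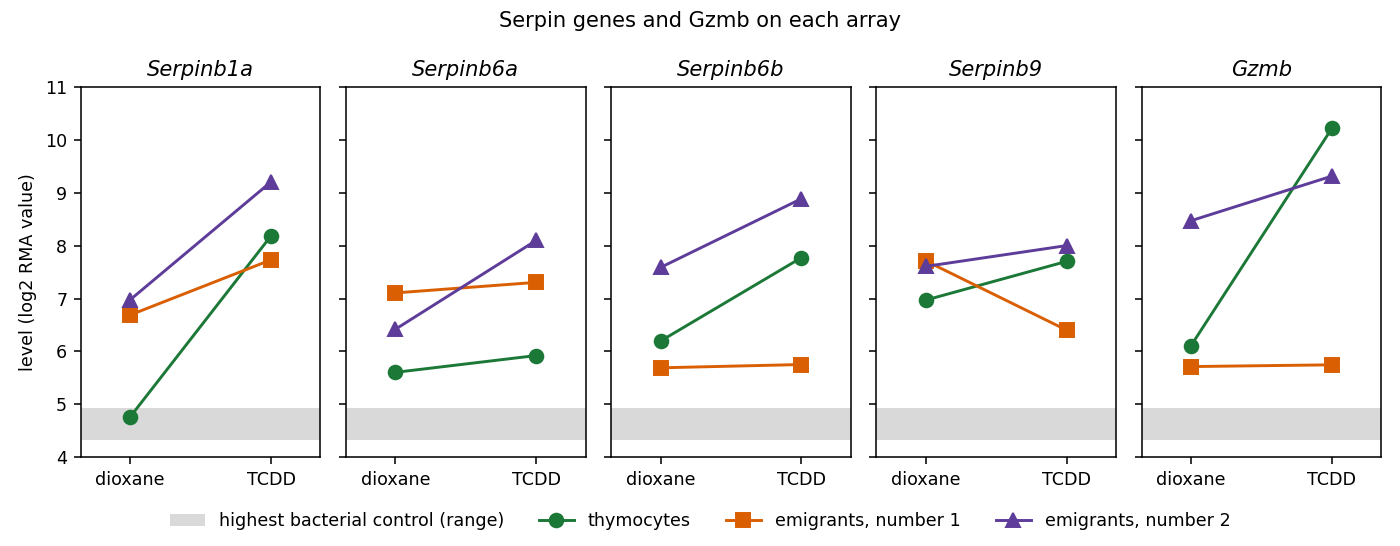
Level (log2 RMA value) of 4 serpin genes and Gzmb on each of the 6 arrays, with 1 line from the dioxane array to the TCDD array of each pair; the grey band spans the highest bacterial control of the arrays (4.32 to 4.92). All 3 lines of Serpinb1a climb, while the lines of Serpinb6b and Gzmb in emigrant pair 1 are flat and lie lowest.

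Genes at least 2-fold higher with TCDD in all 3 pairs made up 0.178% of the genes (22 of 12393), and Serpinb1a was 1 of them. Serpinb1a sat at the edge of this set: with cyclic loess or quantile normalisation its difference in emigrant pair 1 was 0.97, just under 2-fold. In single pairs the share of genes at least 2-fold higher was 2.83% in thymocytes, 3.66% in emigrant pair 1 and 3.43% in emigrant pair 2. Any difference above 0 in all 3 pairs was met by 15.4% of genes, and by 3 of the 4 serpins (Serpinb1a, Serpinb6a and Serpinb6b). With cyclic loess normalisation Serpinb6b left this count, since its value in emigrant pair 1 was then -0.00. TCDD arrays lay wholly above dioxane arrays for 3.47% of genes, and for Serpinb1a alone among the serpins described. These shares describe the arrays, and no support is drawn from them because this contrast chose the genes. The median of the mean difference was 0.86 over the 4 serpins and -0.02 over all genes.

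Serpinb6b, the granzyme A inhibitor, was higher with TCDD in 2 pairs and level in the other. It measured 6.20 and 7.77 in thymocytes, a difference of 1.58 or 2.99-fold. In emigrant pair 2 it measured 7.59 and 8.89, a difference of 1.30 or 2.46-fold. In emigrant pair 1 it measured 5.69 with dioxane and 5.75 with TCDD, the lowest values of the 6 arrays. The mean difference was 0.98 ± 0.81 (SD, n = 3 pairs), and 1.44 without emigrant pair 1. This value leaned on single emigrant arrays: it was 0.17 (TCDD) or 1.61 (dioxane) when 1 array of emigrant pair 2 was omitted, and 1.96 (TCDD) or 0.52 (dioxane) when 1 array of emigrant pair 1 was.

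Serpinb6a, the cathepsin G inhibitor, differed by more than 2-fold in 1 pair only. Emigrant pair 2 measured 6.42 with dioxane and 8.10 with TCDD, a difference of 1.68 or 3.21-fold. The other pairs were closer, at 5.60 and 5.92 in thymocytes (0.32, or 1.25-fold) and 7.11 and 7.31 in emigrant pair 1 (0.20, or 1.15-fold). Its mean difference was 0.73 ± 0.82 (SD, n = 3 pairs), smaller than the spread between the pairs. It was 0.45 without the TCDD array of emigrant pair 2, 0.48 without the dioxane array of that pair and 1.00 without both arrays of emigrant pair 1.

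Serpinb9, the inhibitor of granzyme B, did not follow 1 direction. It measured 6.97 and 7.70 in thymocytes (0.73, or 1.66-fold) and 7.61 and 8.00 in emigrant pair 2 (0.39, or 1.31-fold). Emigrant pair 1 went the other way, from 7.71 with dioxane to 6.40 with TCDD, a difference of -1.31 or 2.48-fold lower. The mean was -0.06 ± 1.10 (SD, n = 3 pairs), and 0.56 without emigrant pair 1. Its sign also turned with single arrays: it was -0.46 without either thymocyte array, 0.51 (TCDD) or 0.08 (dioxane) when 1 array of emigrant pair 1 was omitted, and -0.40 (TCDD) or 0.02 (dioxane) when 1 array of emigrant pair 2 was.

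Gzmb, the protease beside which the serpins were read, had its largest difference in thymocytes. It measured 6.11 with dioxane and 10.22 with TCDD there, a difference of 4.11 or 17.3-fold, which only 2 genes exceeded in that pair. Emigrant pair 2 measured 8.47 and 9.32 (0.84, or 1.80-fold), and emigrant pair 1 measured 5.71 and 5.75 (0.03, and -0.04 with cyclic loess normalisation). Its mean difference was 1.66 ± 2.16 (SD, n = 3 pairs). It was 0.44 without either thymocyte array, 3.03 without the TCDD array of emigrant pair 1, 0.99 (TCDD) or 2.80 (dioxane) without 1 array of emigrant pair 2, and 2.48 without emigrant pair 1. Of 8 measured genes of natural killer and innate lymphoid cells, which can carry Gzmb, 2 were higher in all 3 pairs; their median difference was 1.28 in the thymocyte pair, 0.02 in emigrant pair 1 and -0.25 in emigrant pair 2. Their median level was 5.53 (dioxane) and 6.14 (TCDD) in thymocytes and 5.86 to 6.56 in emigrants, with 7 or 8 of the 8 above the highest bacterial control on each array. The 13 T-lineage genes had a median difference of -0.87 in thymocytes, 0.13 in emigrant pair 1 and -0.90 in emigrant pair 2, with 5 lower and 0 higher in all 3 pairs. For comparison with both counts, 15.4% of all genes were higher and 17.4% lower in all 3 pairs. The part of both lists in the Gzmb and serpin values was not tested. In all 4 serpins and Gzmb the lowest of the 3 differences was that of emigrant pair 1. The median over 8 AHR target genes was smallest there too (0.25, against 3.34 in thymocytes and 2.08 in emigrant pair 2). Of these 8 genes, 4 were higher in all 3 pairs, beside 15.4% of all genes. Xdh and Aldh3a1, the latter under background on all arrays, had their lowest difference in thymocytes instead (0.80 and -0.02). The part of the AHR response in the serpin and Gzmb values was not tested.

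Set beside the proteases they block, serpin and protease differences were unlike in size and often in sign. The Gzmb difference exceeded that of its inhibitor Serpinb9 in all 3 pairs, by 3.38 log2 units in thymocytes and by 1.34 and 0.45 in emigrant pairs 1 and 2. Gzma, which encodes granzyme A, went from 12.20 (dioxane) to 12.14 (TCDD) in thymocytes, from 8.68 to 9.37 in emigrant pair 1 and from 11.86 to 9.13 in emigrant pair 2. Its inhibitor Serpinb6b ran against it in emigrant pair 2, where Gzma differed by -2.74 and Serpinb6b by 1.30. Both Serpinb6b and, with dioxane, Gzma were low in emigrant pair 1, where the T-lineage median was lowest.

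The neutrophil proteases that Serpinb1a blocks were brightest on both arrays of emigrant pair 1. Prtn3, proteinase 3, measured 7.64 and 8.88 there and 4.62 to 4.81 on the other 4 arrays. Ctsg, cathepsin G, measured 7.93 and 10.15 there and 4.57 to 4.76 on the rest. Elane, neutrophil elastase, measured 7.13 and 7.78 there against 6.02 to 6.32. The Serpinb1a difference was smallest in this pair and largest in thymocytes, where Prtn3 differed by -0.09, Ctsg by -0.19 and Elane by -0.23. In thymocytes the median over neutrophil genes was 4.93 with dioxane and 5.16 with TCDD, and that over 11 macrophage and dendritic-cell genes was 5.07 and 5.10. The median difference of these lists in thymocytes was 0.10 and -0.16. In emigrant pair 2 both medians were higher with TCDD (7.40 against 6.01 and 8.53 against 6.61), beside differences of 2.23 for Serpinb1a and 1.68 for Serpinb6a. The part of these proteases and lists in the serpin values of any pair was not tested.

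**Figure D2:**
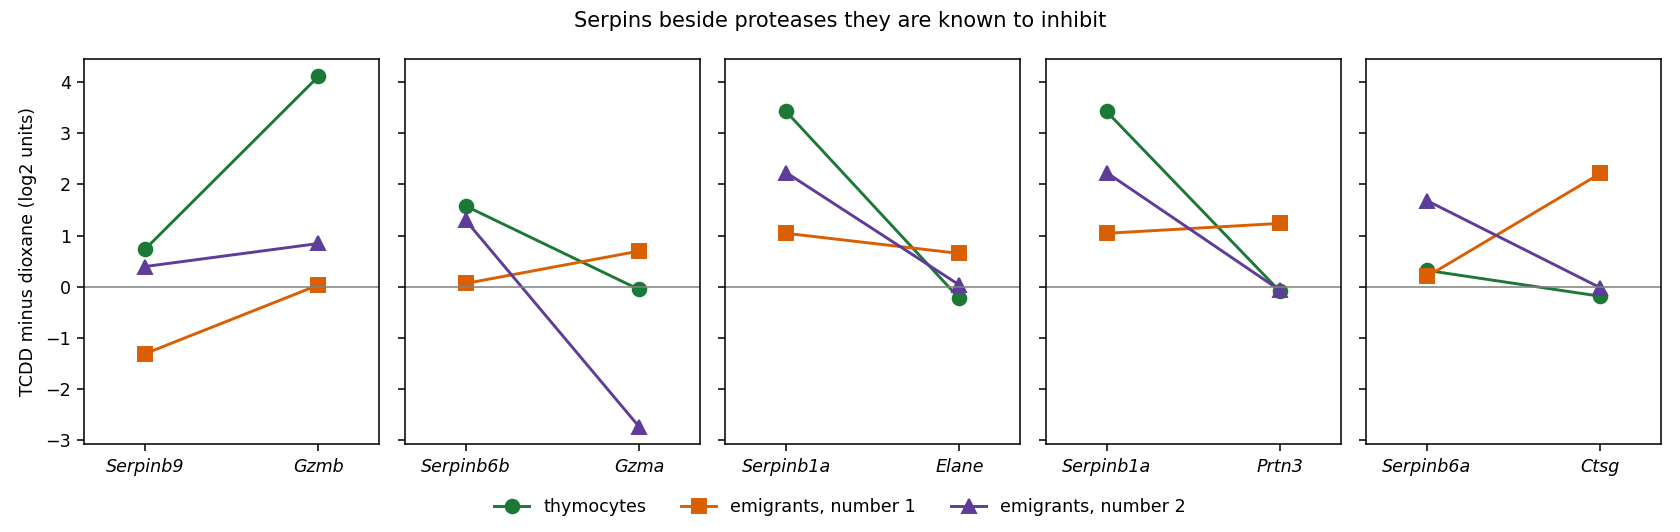
TCDD minus dioxane (log2 units) of a serpin and of a protease it inhibits, joined by 1 line per pair of arrays. Gzmb lies above Serpinb9 in all 3 pairs, while Gzma lies below Serpinb6b in thymocytes and emigrant pair 2 (-0.05 against 1.58 and -2.74 against 1.30).

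Wider protease lists gave no called gene. With limma over both sources, 0 of 12393 genes (0%) differed between TCDD and dioxane at an adjusted p under 0.05 (smallest adjusted p = 0.483), and 659 had an unadjusted p under 0.05. Of 11 granule proteases, perforin and serglycin genes, Gzmb included, 5 were higher in all 3 pairs and 0 lower, with a median of 0.09. Gzmb was 1 of the 5 through 0.03 in emigrant pair 1, which was -0.04 with cyclic loess normalisation. Among all genes 15.4% were higher and 17.4% lower in all 3 pairs. Of the 5, only 2 (Gzmb and Srgn) exceeded the highest bacterial control on all arrays, and Gzmf, granzyme F, was under it on all. Gzmc, granzyme C, measured 6.56 and 6.97 on the TCDD arrays of thymocytes and emigrant pair 2, against 3.86 (under background) and 5.16 with dioxane. Both of its values in emigrant pair 1, 3.74 and 3.87, lay under background. Srgn, the proteoglycan core that packs granule proteases, differed by 1.17, 0.76 and 0.21. Prf1, the pore former perforin, differed by 0.11 in thymocytes and by -0.79 and 0.24 in emigrant pairs 1 and 2. Of 13 lysosomal cathepsin and legumain genes, 7 were higher in all 3 pairs (5 of them above the highest bacterial control on all arrays) and 1 lower, with a median of 0.45. Ctsl, cathepsin L, was at least 2-fold higher in each (1.08, 2.09 and 1.71), and Ctse, cathepsin E, was lower in each (-0.43, -0.45 and -0.62). Of 7 caspase genes, 3 were higher in all 3 pairs (1 of them above the control on all arrays) and 1 was lower, with a median of 0.36. The lower one was Casp2, an initiator caspase, at -0.84, -1.08 and -1.24. Of 10 myeloid serine protease genes, 1 was higher in all 3 pairs, and their median was 0.11. The smallest adjusted p of limma in any of these lists was 0.742, in the caspases.

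Most other serpins on the array were dim and differed little. Of 26 other serpin genes, 9 stayed under the highest bacterial control on all 6 arrays and 4 exceeded it on all 6. Their mean TCDD differences ran from -0.43 to 0.99 with a median of 0.04, and 4 of the 26 were higher in all 3 pairs, a share close to the 15.4% of all genes. Of the 26, 3 were at least 2-fold higher in some pair: Serpinb2, the plasminogen activator inhibitor of macrophages, Serping1, the C1 inhibitor of complement, and Serpinh1, the collagen chaperone. Serpinb2 measured 5.06 with dioxane and 6.47 with TCDD in emigrant pair 1, and 3.66 and 5.08 in emigrant pair 2, where the dioxane value lies under background. In thymocytes both of its values, 3.60 and 3.75, lay under background. Serping1 was 2-fold higher in emigrant pair 2 alone, with 3.76 under background on its dioxane array and 5.26 with TCDD, and it exceeded the bacterial control on only 2 of the 6 arrays. Serpinh1 differed by 0.44, -0.50 and 1.34. Serpinb2 and Serping1 were higher in all 3 pairs, and their means (0.99 and 0.86) exceeded those of Serpinb6a (0.73) and Serpinb9 (-0.06). The mean of Serpinb2 was level with that of Serpinb6b (0.98). In the other direction, Serpina1c, an alpha-1-antitrypsin gene, measured 5.33 with dioxane and 4.30 with TCDD in emigrant pair 1, the latter under background. None of them passed limma (smallest adjusted p of the list = 0.915).

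The neighbours on chromosome 13 were among the dim ones. Besides the 4 described, 5 of the 16 genes in the stretch had a probe set of their own, and their mean TCDD differences ran from -0.18 (Serpinb9g) to 0.11 (Serpinb9b). Of those 5, 1 (Serpinb9b) exceeded the highest bacterial control on all arrays, at 5.24 to 5.63, so for the other 4 a difference would be bounded by background. Near-identical copies abound in this stretch, and a probe set annotated with 1 symbol may still take up transcripts of another copy.

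**Figure D3:**
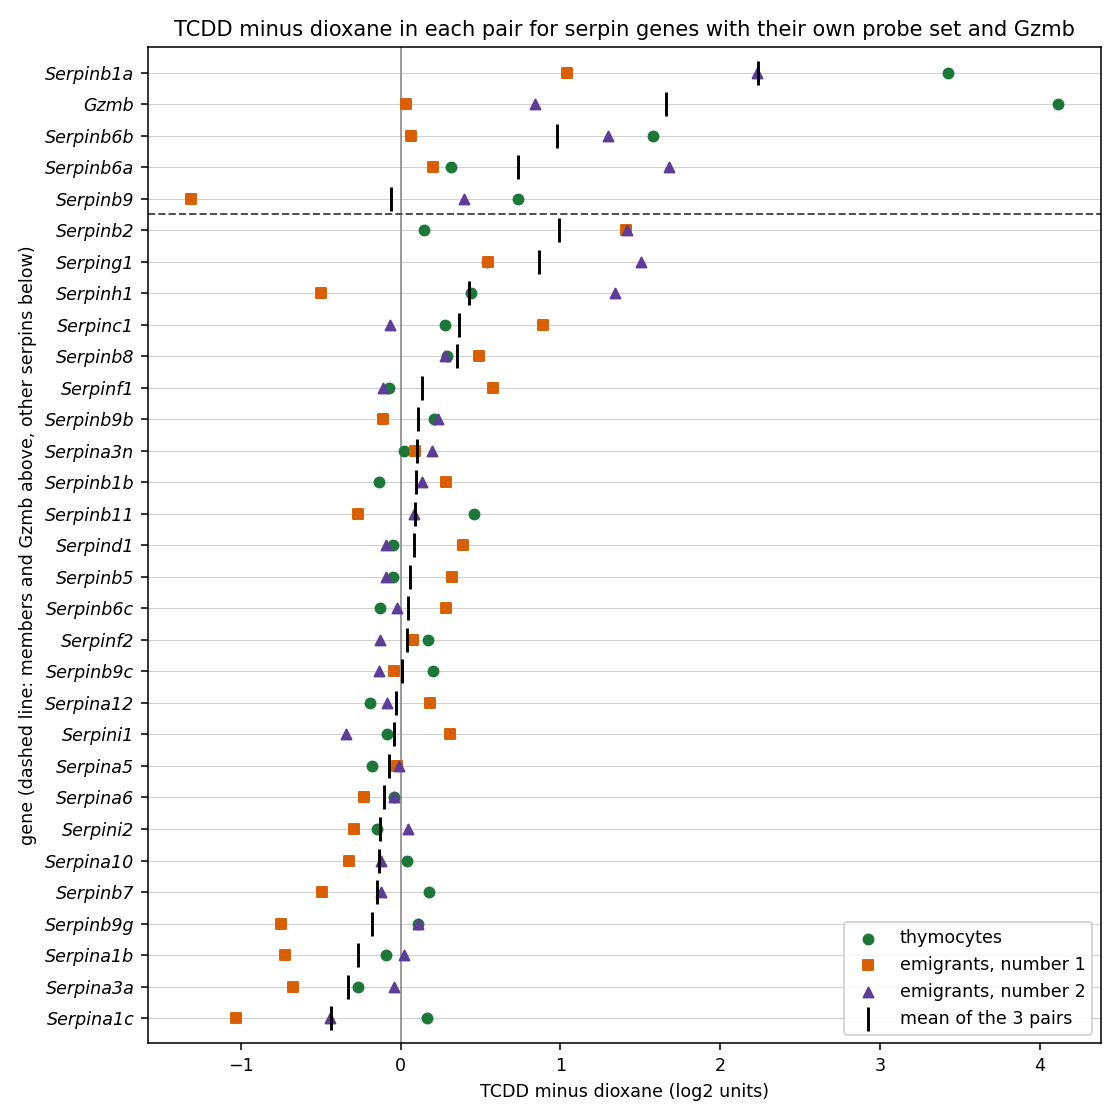
TCDD minus dioxane (log2 units) in each of the 3 pairs of arrays, with the mean as a bar, for the 4 serpins and Gzmb above the dashed line and 26 other serpin genes below it, sorted by mean. Serpinb1a stands to the right of 0 in all pairs (3.43, 1.04 and 2.23), and the means of the other serpins lie between -0.43 and 0.99.

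The genes were chosen with the TCDD differences in view, and the difference between the cell sources was tested. Earlier results of these data were known at the choice, so this test may not be fully independent of it. With limma and treatment in the model, 0 of 12393 genes (0%) differed between the 4 emigrant and 2 thymocyte arrays at an adjusted p under 0.05 (smallest adjusted p = 0.165), and 880 had an unadjusted p under 0.05, so no serpin passed. Without the dioxane array of emigrant pair 2 the count was 7, none of them a serpin described here. Serpinb6a was the serpin with the clearest separation: its 4 emigrant values (6.42 to 8.10) all lay above both thymocyte values (5.60 and 5.92). Emigrants exceeded thymocytes in this way for 5.46% of genes. The Serpinb6a difference was 1.47 ± 0.34 (SE; limma adjusted p = 0.448), 1.16 among dioxane arrays and 1.78 among TCDD arrays. The median over neutrophil genes was also higher in emigrants (6.01 to 10.06 against 4.93 to 5.16), as was that over macrophage and dendritic-cell genes (6.61 to 9.07 against 5.07 to 5.10). Their part in the Serpinb6a difference was not tested.

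Serpinb1a was higher in emigrants by 1.18 ± 0.57 (SE; limma adjusted p = 0.789), but its sources overlapped. The step was 2.07 among dioxane arrays, from 4.76 in thymocytes to 6.83 ± 0.20 (SD, n = 2) in emigrants. Among TCDD arrays it was 0.28, from 8.19 to 8.47 ± 1.04 (SD, n = 2). In rising order the groups were thus thymocytes with dioxane, emigrants with dioxane, thymocytes with TCDD and emigrants with TCDD, and the last pair differed by less than the spread between the emigrant arrays. Whether the source difference itself changes with TCDD was not tested.

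The remaining genes showed no source difference beyond their spread. Serpinb6b differed by -0.01 ± 0.99 (SE; limma adjusted p = 0.999), Serpinb9 by 0.09 ± 0.51 (adjusted p = 0.997) and Gzmb by -0.85 ± 1.42 (adjusted p = 0.995). For Serpinb6b and Gzmb, emigrant arrays of the same treatment lay far apart. Pair 1 minus pair 2 was -2.76 (dioxane) and -3.57 (TCDD) log2 units for Gzmb, and -1.90 and -3.14 for Serpinb6b. Without emigrant pair 1 the source difference was 1.25 for Serpinb6b (adjusted p = 0.0997) and 0.73 for Gzmb (adjusted p = 0.649). Single arrays turned these signs too. Without the TCDD thymocyte array the difference was 0.44 for Serpinb6b and 0.99 for Gzmb, and without the TCDD array of emigrant pair 1 it was 0.73 and 0.18. Without the dioxane array of emigrant pair 1 it was 0.34 for Serpinb6b and -0.01 for Serpinb9. Serpinb9 was also lower in emigrants without the dioxane thymocyte array (-0.50) or the TCDD array of emigrant pair 2 (-0.16). The median source difference was 0.64 over the 4 serpins and -0.04 over all genes.

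**Figure D4:**
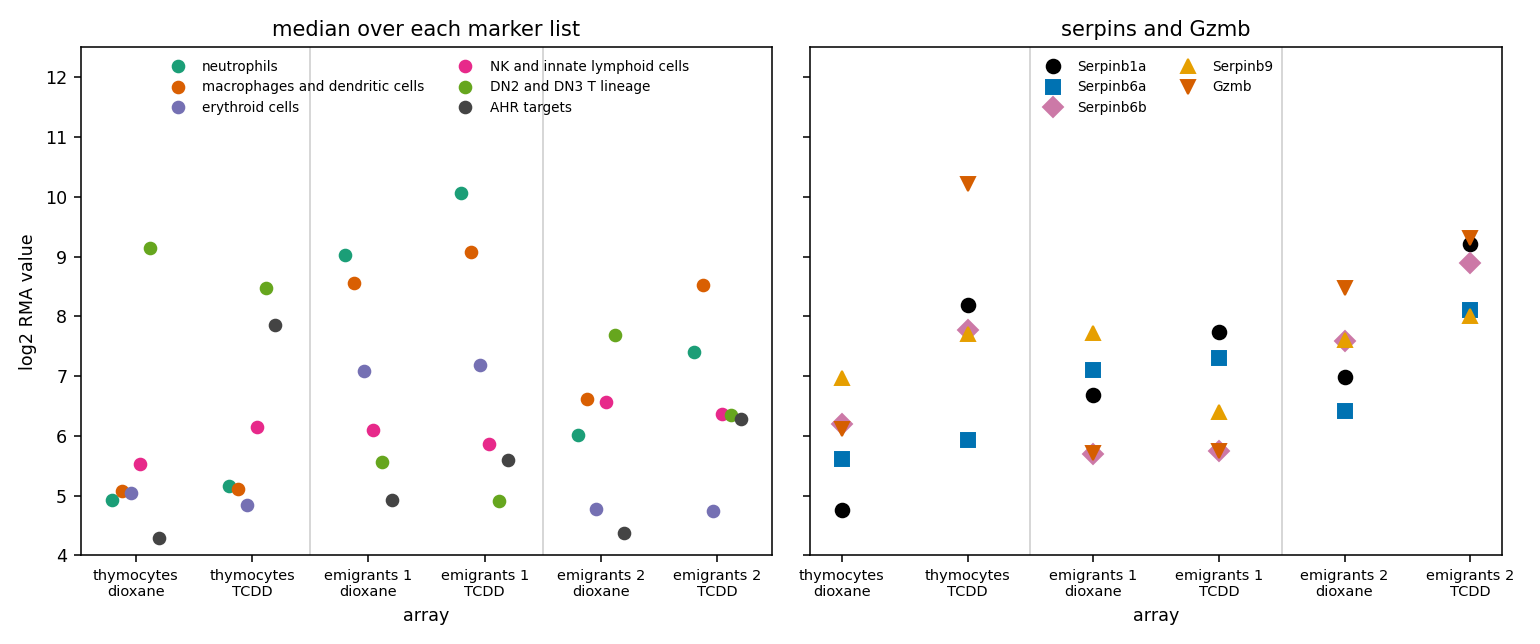
Left, median level (log2 RMA value) over marker lists of 6 kinds on each array; right, level of 4 serpins and Gzmb on the same arrays. A point is to be compared across arrays and not with other genes: neutrophil and erythroid medians peak on emigrant pair 1, where Serpinb6b and Gzmb are lowest.

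The serpins did not share 1 pattern over the 6 arrays. Likeness was measured by Pearson's r of the log2 values over the 6 arrays, over 3238 candidate genes whose mean reached the median of all genes (5.28) and whose values spanned 1 log2 unit or more. It is a description over arrays that share treatment, source and mixture of cells. The 5 genes most like Serpinb1a were Glipr1, Sh3bgrl3, Syne1, Phyh and Lgals3 (r = 0.995 to 0.984). Lgals3, the galectin of macrophages and other cells, differed by 3.64, 1.82 and 2.90 in the 3 pairs, and Glipr1 by 1.86, 0.56 and 1.32. Nearest to Serpinb6a were Slc6a6, a taurine transporter, Mmp8, a neutrophil collagenase, and Apobec1, an RNA-editing deaminase (r = 0.988 to 0.984). Mmp8 measured 6.79 and 7.21 in emigrant pair 1, 5.11 and 8.91 in emigrant pair 2, and 4.44 and 4.74 in thymocytes.

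Serpinb6b was most like Il1r1, the interleukin-1 receptor, Igtp, an interferon-inducible GTPase, and Txk, a T-cell kinase (r = 0.999 to 0.997). Igtp measured 7.19 and 7.36 in emigrant pair 1, 8.96 and 10.12 in emigrant pair 2, and 7.79 and 9.21 in thymocytes, the same order of arrays as Serpinb6b. Gzmb ranked 108th of 3238 candidates in likeness to Serpinb6b (r = 0.911), 245th to Serpinb9 (r = 0.660), 467th to Serpinb1a (r = 0.626) and 1659th to Serpinb6a (r = -0.01). Nearest to Serpinb9 were Spsb3, Arl2bp and Elf1 (r = 0.960 to 0.952). Elf1, an Ets-family transcription factor of lymphocytes, shared the lower TCDD value in emigrant pair 1 (6.72 with dioxane and 5.56 with TCDD).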

How the data were processed

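Gene expression was measured on 6 Affymetrix arrays, 1 per sample. The deposited file holds 1 value per probe set and array, on the log2 scale as judged from its range. The submitters' processing notes name RMA, and the design text names the Bioconductor affy package, without a version. RMA makes no present or absent calls, and differences between low values are compressed. No further normalisation was applied.

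Of 22690 probe sets, 64 were controls, 691 matched several genes and 1555 named none; these were set aside. The remaining 20380 gave 12393 genes, each represented by its probe set with the highest mean. The annotation came from the platform table.

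All 6 arrays entered 1 limma model (version 3.58.1, R 4.3.3; lmFit, eBayes) with treatment and cell source as terms (3 residual degrees of freedom), and p-values were adjusted by Benjamini-Hochberg over all genes, with calls under 0.05. Median standard errors were 0.210 (TCDD) and 0.223 (source) log2 units. The fit was tested on simulated data for 12393 genes. Of 50 genes changed by 2 log2 units, 39 were recovered for TCDD and 35 for source. At 1 log2 unit only 3 of 50 were recovered in each, and false calls numbered 2 and 8. The simulated noise was independent between arrays, without the mixture of cells seen in emigrant pair 1. These counts thus do not give the power on the real arrays. There the TCDD standard error was 0.53 for Serpinb1a and 1.34 for Gzmb. Named genes were the serpins, Gzmb, all other Serpin genes, lists of proteases and AHR targets, and the nearest genes by Pearson's r (5 for Serpinb1a, 3 for the others). Members and lists were chosen with earlier results of these data known. The number of arrays limits the precision. Alternatives tried were cyclic loess, quantile and median scaling, a level filter, a prior trend, single probe sets, a 1.5-fold threshold, models without the covariate or with a replicate block, and omission of arrays; omitting emigrant pair 1, and a block for the replicate number between sources, were added after the data were seen.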

Additional observations from a re-analysis of the deposited data

Results flagged for a closer look

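Elane, neutrophil elastase, differed by -0.23 with TCDD in thymocytes, while both emigrant pairs were positive (0.65 in emigrant pair 1 and 0.03 in emigrant pair 2). It was flagged because the thymocyte sign was opposite to that of both emigrant pairs. Emigrant pair 2 was nearly level, though, at 6.02 with dioxane and 6.05 with TCDD. The difference between the sources was not tested, and the thymocyte value rests on 1 array per treatment.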

How the results depend on the processing

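No gene was called between TCDD and dioxane under any alternative run, or without any single array. With a replicate block for the pair of arrays the count was again 0 (smallest adjusted p = 0.282), and the serpin means are the same by construction. The number 1 minus number 2 differences of TCDD and dioxane emigrants correlated at r = 0.560 across 12393 genes, but the labels tie these numbers to no shared litter, batch or day. The replicate number as a block between sources was a fit chosen after seeing the data. Its source difference rests on thymocytes against emigrant pair 1 alone. With it 160 genes were called, none of them a serpin described here or Gzmb (smallest limma adjusted p among these, 0.175 for Serpinb6a). In this fit the Serpinb9 source difference turned to -0.28, and those of Serpinb6b and Gzmb were -1.26 and -2.43. Between sources the count was 0 to 7 over single omissions; the 7, none of them a serpin described here, came without the dioxane array of emigrant pair 2. The number of genes at least as high as the threshold in all 3 pairs was 22 at 2-fold and 112 at 1.5-fold, since a lower threshold admits more genes by construction. Over single omissions the mean TCDD difference was 1.64 to 2.83 for Serpinb1a, 0.45 to 0.94 for Serpinb6a, 0.17 to 1.96 for Serpinb6b, -0.46 to 0.51 for Serpinb9 and 0.44 to 3.03 for Gzmb. The source difference over these omissions was 0.28 to 2.07 for Serpinb1a, 1.16 to 1.78 for Serpinb6a, -0.61 to 0.73 for Serpinb6b, -0.50 to 0.69 for Serpinb9 and -2.69 to 0.99 for Gzmb. Omitting an emigrant array unbalances the numbers and leaves 1 array in its group, which is assumed to vary like the others. The Serpinb6b source difference, near 0, turned positive with cyclic loess (0.0198), with arrays centred on their medians (0.0222) and without emigrant pair 1 (1.25), and that of Gzmb turned positive in the last case (0.73); the cause was not tested. The second Serpinb1a probe set gave 1.26 in thymocytes in place of 3.43. Signal over background limits the Serpinb1a value there.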
